A study of Mus musculus with 7 samples.

Results

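Expression of 7 genes that encode subunits of the GABA-A receptor, *Gabra2*, *Gabra3*, *Gabra4*, *Gabra5*, *Gabrb1*, *Gabrb2* and *Gabrd*, was examined in mouse hippocampus by RNA-seq. The members were the rows of the count files whose Ensembl identifier belongs to these 7 symbols, out of 55416 identifiers in all. All 7 passed the filter on low counts, as did 13152 genes of the series. The tissue came from 7 libraries of male, age-matched, outbred CD1 mice. Untreated mice gave 3 control libraries (replicates 1, 2 and 3). DMSO-treated mice, which received the vehicle, gave 2 libraries (replicates 2 and 3), and mice given ONX-0914, which blocks the immunoproteasome, gave the other 2 (replicates 1 and 2). The dose was 10 mg/kg, given into the peritoneal cavity 2 times per week for 2 months, and DMSO was given in an equal volume on that schedule. The sources used here do not state the age of the mice, or whether a library came from a single animal, so that p-values measure the spread between these libraries.

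GABA-A receptors are pentameric chloride channels opened by GABA, the main inhibitory transmitter of the brain. A typical receptor joins alpha and beta subunits, which form the GABA binding site, with a gamma or a delta subunit. The alpha subunit largely sets where a receptor sits and which drugs it responds to. Many receptors with a gamma subunit gather at synapses and carry brief currents. Receptors with alpha 4 and delta lie mostly outside the synapse and carry a tonic current, as do many of those with alpha 5. In the hippocampus, alpha 5 is abundant in pyramidal cells, and alpha 4 with delta is abundant in dentate granule cells. The thalamus is also known for alpha 4, delta and beta 2.

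*Gabra2*, *Gabra4* and *Gabrb1* lie close together on chromosome 5, *Gabra5* on chromosome 7, *Gabrb2* on chromosome 11, *Gabrd* on chromosome 4 and *Gabra3* on chromosome X. In the GENCODE M21 annotation, none of the 7 shared exon sequence with a gene on the same strand. On opposite strands, *Gabra4* and *Gabrb1* shared 46 exon bases and *Gabra5* shared 148 with Gm9962. Because the strand setting of the counting is not given in the sources used here, reads from these short stretches could not be assigned with certainty.

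The sequences upstream of 4 members are shown because their libraries behaved differently in the results that follow: *Gabra2* was low and *Gabra4* high in both ONX-0914 libraries, and *Gabra5* and *Gabrb2* differed most between these libraries. The sequences were taken from RefSeq (GRCm38.p6), in which 6 of the 7 members had an entry, are written 5′ to 3′ on the strand of the gene, and end 1 base before the transcript start, with the exception of *Gabra4*, which ends at position -56 where an exon of *Gabrb1* on the opposite strand begins. They lie at chr5:71095850-71096099 (minus strand) for *Gabra2*, chr5:71658364-71658558 (minus strand) for *Gabra4*, chr7:57510060-57510309 (minus strand) for *Gabra5* and chr11:42420190-42420439 (plus strand) for *Gabrb2*. Capitals mark matches, on either strand, to the TATA box (TATAAA), the GC box (GGGCGG) and the CCAAT box (CCAAT).
Gabra2: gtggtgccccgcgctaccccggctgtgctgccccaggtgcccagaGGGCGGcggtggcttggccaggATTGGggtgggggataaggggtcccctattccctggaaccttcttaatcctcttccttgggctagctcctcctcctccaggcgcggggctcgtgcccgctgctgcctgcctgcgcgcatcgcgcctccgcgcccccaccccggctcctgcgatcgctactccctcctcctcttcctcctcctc
Gabra4: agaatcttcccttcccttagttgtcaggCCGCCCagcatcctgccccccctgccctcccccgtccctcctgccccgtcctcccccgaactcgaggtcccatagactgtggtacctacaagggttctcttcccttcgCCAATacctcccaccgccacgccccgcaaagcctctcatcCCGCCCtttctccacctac
Gabra5: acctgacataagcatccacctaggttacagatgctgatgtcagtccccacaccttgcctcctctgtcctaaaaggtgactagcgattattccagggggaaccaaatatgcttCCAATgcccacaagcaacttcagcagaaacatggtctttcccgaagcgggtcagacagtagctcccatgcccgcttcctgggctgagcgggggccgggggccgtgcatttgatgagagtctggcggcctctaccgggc
Gabrb2: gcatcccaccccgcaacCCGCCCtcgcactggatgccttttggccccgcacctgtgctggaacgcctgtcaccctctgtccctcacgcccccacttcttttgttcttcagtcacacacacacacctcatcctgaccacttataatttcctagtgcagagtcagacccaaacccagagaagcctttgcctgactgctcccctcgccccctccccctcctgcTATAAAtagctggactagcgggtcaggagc

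The 250 bases upstream of *Gabra2* had a GC content of 70%, with a GC box at -205 and a CCAAT box at -183. GC content in the 250-base windows of *Gabra4*, *Gabra5* and *Gabrb2* was 61.2%, 56.4% and 58.8%. All 4 values lay above the median of 52.4% over all 32851 windows of the same length. *Gabra4* held GC boxes at -222 and -74 and a CCAAT box at -114, and *Gabra5* held a CCAAT box at -138 alone. Of these 4 sequences, the *Gabrb2* window was the one with a TATA box, at -30, and it also held a GC box at -233. RefSeq gave further *Gabrb2* starts, which are not shown. Their windows held no TATA or GC box, and their only match was a CCAAT box at -71. Among all windows, 12.4% held the TATA box, 32.7% the GC box and 33.8% the CCAAT box. The cAMP response element TGACGTCA, found in 1.55% of windows, was in none of the windows of the 6 members. None of these motifs contains another, and the matches are a description of the sequence.

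The total count on genes was 2913608 to 3877006 in 6 libraries and 13782270 in ONX-0914 replicate 2, so that counting error was smallest in the latter. The mitochondrial share of counts was 3.71% in ONX-0914 replicate 2 and 0.818% to 1.59% elsewhere. All listed markers of CA1, CA2, CA3 and dentate granule cells were detected in every library. However, ONX-0914 replicate 1 stood apart from the others. Its summed dentate granule cell markers (4 genes, among them *Prox1*) were at 67.1 CPM (counts scaled to the size of the library), against 264 to 332 in control and 248 in ONX-0914 replicate 2. Its summed CA1 markers were at 254 CPM there, 439 to 503 in control and 637 in ONX-0914 replicate 2. In contrast, the summed markers of thalamus and midbrain were at 941 CPM in ONX-0914 replicate 1, against 76.3 to 87.8 in control and 88.8 in ONX-0914 replicate 2, and those of striatum were at 1187 CPM, against 218 to 251 in control and 175 in ONX-0914 replicate 2. All 8 thalamic and all 8 striatal markers lay above every control library in ONX-0914 replicate 1. In ONX-0914 replicate 2, 4 of the thalamic markers lay above and 2 below every control library, and for the striatal markers 2 lay above and 2 below. None of these markers was at 0 in all control libraries. Interneuron markers, relevant here because GABA is the transmitter of these cells, summed to 177 to 199 CPM in control, 402 in ONX-0914 replicate 1 and 264 in ONX-0914 replicate 2. Of these 5 markers, 1 (*Pvalb*) lay above and 2 below every control library in replicate 1, and 3 above and 2 below in replicate 2. Endothelial markers were higher in both ONX-0914 libraries, at 203 and 175 CPM against 110 to 119 in control, with all 3 above every control library in each. Astrocyte markers summed to 1589 and 1197 CPM in ONX-0914 replicates 1 and 2, against 1621 to 2179 in control, with 2 of 4 above and 1 below every control library in replicate 1 and 3 below in replicate 2. The part of any of these differences in the subunit values was not tested, and in bulk tissue fewer cells of a type and less RNA per cell cannot be told apart. Therefore, each result is also given for the single ONX-0914 libraries.

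**Figure D1:**
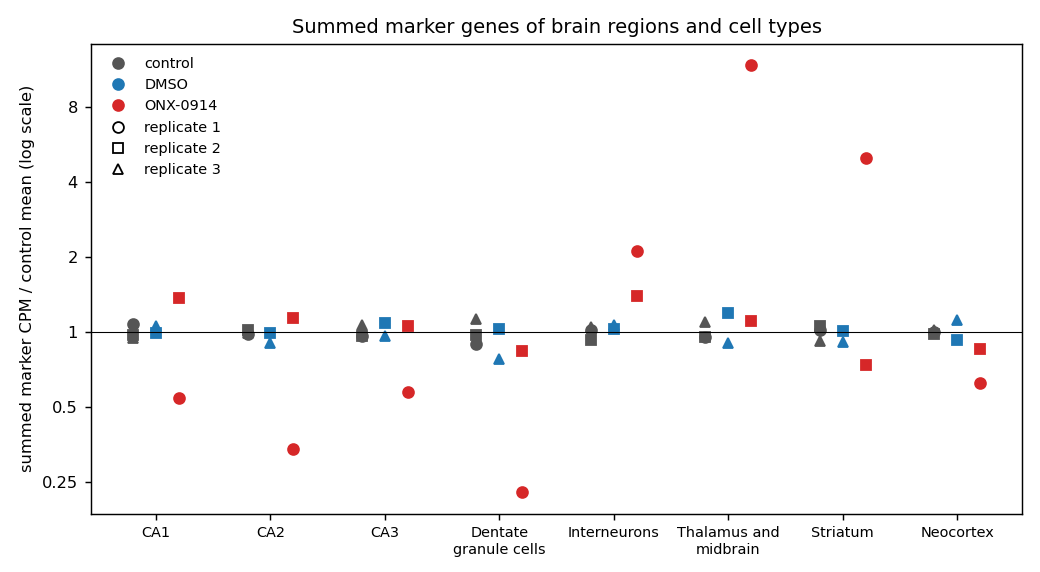
Summed CPM of marker genes of brain regions and cell types in each library, divided by the control mean (log scale). Circles, squares and triangles stand for replicates 1, 2 and 3. ONX-0914 replicate 1 (red circle) lay at 11.7 times the control mean for the thalamus and midbrain markers, 0.228 times for dentate granule cells, whereas ONX-0914 replicate 2 (red square) lay between 0.735 and 1.39 times for the 8 lists shown.

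To describe the baseline first, levels in untreated hippocampus were compared between genes as CPM per kilobase of annotated exon (CPM/kb). *Gabrb2* was the highest at 33.7 ± 0.910 CPM/kb (mean ± SD, n = 3 here and for the next 6 values). It was followed by *Gabra3* at 17.9 ± 2.54 and *Gabra2* at 17.6 ± 0.445, and then by *Gabra5* at 14.7 ± 2.97 and *Gabra4* at 12.8 ± 0.968. *Gabrb1* was at 11.3 ± 0.984 and *Gabrd* at 5.99 ± 1.36 CPM/kb. Between neighbours in this order, only the steps from *Gabrb2* to *Gabra3* and from *Gabrb1* to *Gabrd* separated the control libraries without overlap. *Gabra3* and *Gabra2*, which overlapped each other, both lay above *Gabra4* and *Gabrb1* in all control libraries, and *Gabra5* overlapped all 4 of these. With the length of the longest transcript in place of all exons, 3 of the 7 genes kept their place, those at the top and the 2 at the bottom. By that length, *Gabra3* was below *Gabra4* in control replicate 2.

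The delta subunit and its usual partner, alpha 4, had nearly equal values in the ONX-0914 libraries. *Gabrd*, whose protein takes the place of gamma in some receptors of the tonic current, was at 15.6, 14.4 and 21.7 CPM in control replicates 1, 2 and 3. It was at 19.5 and 17.8 CPM in DMSO replicates 2 and 3, and at 39.3 and 38.2 CPM in ONX-0914 replicates 1 and 2. Both ONX-0914 libraries lay above all 5 others, and they differed from each other by 0.04 on the log2 scale. A gap as small was found in 3.61% of the genes tested. The mean was 17.2 ± 3.90 CPM in control (n = 3), 18.6 ± 1.23 in DMSO-treated mice (n = 2) and 38.8 ± 0.742 in ONX-0914-treated mice (n = 2). Against control, the Log2FC was 1.17 (SE 0.223), a 2.25-fold higher level, with an edgeR FDR of 0.0756. This missed the threshold of 0.05, and *Gabrd* stood at place 121 of 13152 by p-value. Against DMSO, the Log2FC was 1.05 (SE 0.25) with an FDR of 0.168.

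*Gabra4* behaved in the same manner. It was at 76.4, 84.4 and 73.0 CPM in control replicates 1 to 3, at 96.2 and 77.8 CPM in the DMSO libraries, and at 131 and 133 CPM in the ONX-0914 libraries. Again, both ONX-0914 libraries were higher than all 5 others, with a gap of -0.02 on the log2 scale between replicates 1 and 2, a gap as small as in 1.69% of genes. The Log2FC against control was 0.76 (SE 0.166), a 1.69-fold higher level, with an edgeR FDR of 0.104. Against DMSO it was 0.60 (SE 0.185) with an FDR of 0.232.

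Both genes are known from thalamus and from dentate granule cells, whose markers differed strongly between the ONX-0914 libraries, as given above. Without ONX-0914 replicate 1, in which thalamic markers were high, the Log2FC against control was 1.13 for *Gabrd* and 0.76 for *Gabra4*. Without ONX-0914 replicate 2 it was 1.18 and 0.75. The summed thalamic markers were at 11.7 times the control mean in ONX-0914 replicate 1 and 1.11 times in replicate 2, and the dentate markers at 0.228 and 0.842 times. Their part in the values of *Gabrd* and *Gabra4* was not tested.

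*Gabra3*, an alpha subunit of synaptic and extrasynaptic receptors, was also above all 5 other libraries in both ONX-0914 libraries, but the libraries were unequal. Its level was 73.9, 59.2 and 78.2 CPM in control, 61.5 and 50.8 CPM in DMSO, and 150 and 81.2 CPM in ONX-0914 replicates 1 and 2. The lower of these exceeded the highest control library by less than the counting error of the latter. The Log2FC against control was 0.71 (SE 0.268, edgeR FDR 0.221). It was 0.20 when replicate 1 was left out and 1.09 when replicate 2 was, so that the value rested largely on the library with high thalamic and striatal markers. Against DMSO the Log2FC was 1.03 (SE 0.302, FDR 0.219), and 0.52 without ONX-0914 replicate 1.

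*Gabra2*, which encodes the alpha subunit enriched at synapses on the axon initial segment, was the single member that lay below all 5 others in both ONX-0914 libraries. It was at 131, 134 and 137 CPM in control, at 137 and 123 CPM in DMSO, and at 86.3 and 108 CPM in ONX-0914 replicates 1 and 2. The control libraries were close to each other, with a range of 0.07 on the log2 scale. The Log2FC against control was -0.46 (SE 0.169), a 1.37-fold lower level, with an edgeR FDR of 0.217. It was -0.31 when replicate 1 was left out and -0.64 when replicate 2 was. Against DMSO it was -0.42 (SE 0.184, FDR 0.343).

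*Gabra5*, the alpha subunit of tonic receptors on pyramidal cells, differed more between the ONX-0914 libraries than any other member. Its level was 53.3, 41.5 and 35.9 CPM in control and 50.8 and 48.3 CPM in DMSO. In ONX-0914 replicate 1 it was 7.01 CPM, from 28 counts (95% Poisson interval 4.66 to 10.1 CPM), and in ONX-0914 replicate 2 it was 116 CPM, from 1758 counts (110 to 121 CPM). These intervals cover counting error only. The libraries thus lay on either side of all others and were 16.5-fold apart. A gap of at least this size was found in 35 of the 13152 genes tested (0.266%). The Log2FC against control was 0.53 with an SE of 0.784 (edgeR FDR 0.728), and became 1.41 when replicate 1 was left out and -2.62 when replicate 2 was. The mean of the ONX-0914 group, 61.3 ± 76.7 CPM (n = 2), therefore describes neither library. The summed CA1 markers lay on the same side of control as *Gabra5* in both libraries, at 0.546 times the control mean in ONX-0914 replicate 1, where all 4 markers were below every control library, and at 1.37 times in replicate 2, where 3 were above and 1 was below. For dentate granule cells the factors were 0.228 and 0.842. Their part in the *Gabra5* values was not tested.

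**Figure D2:**
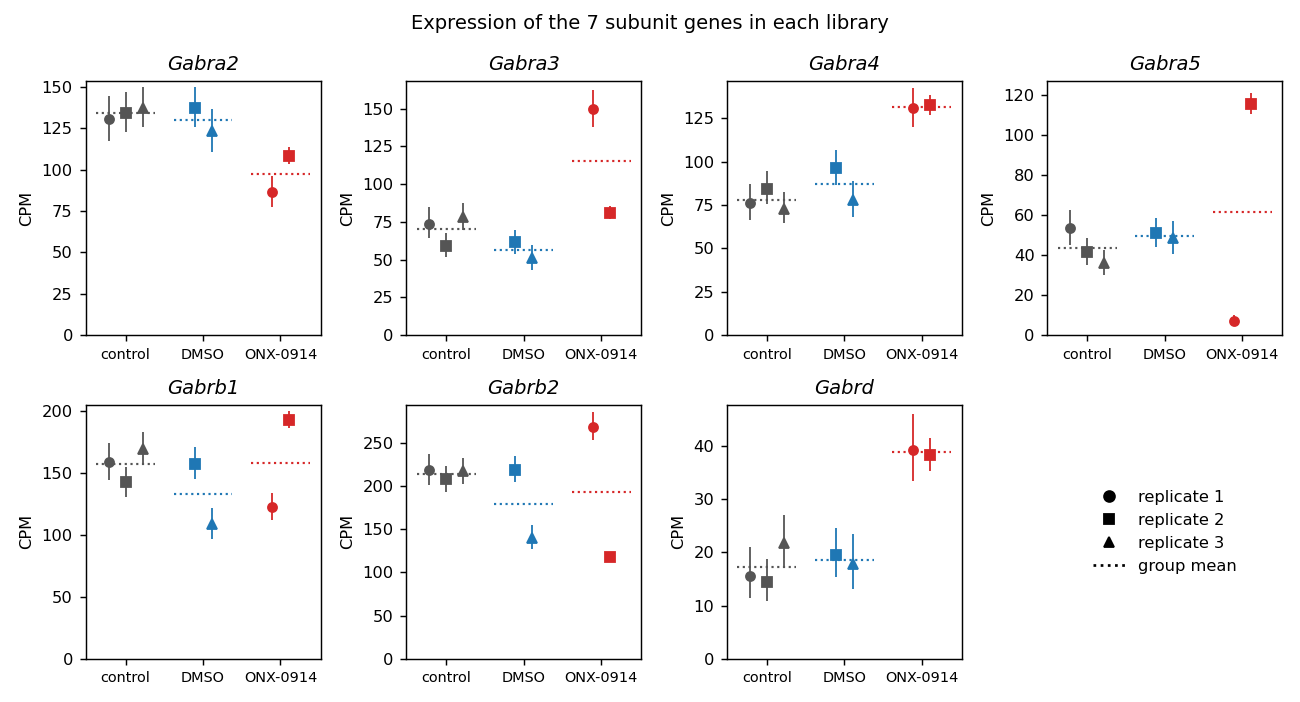
CPM of the 7 subunit genes in each library (linear axes from 0). Points are libraries, bars their 95% Poisson counting intervals and dotted lines the group means. Both ONX-0914 libraries lay above all others for *Gabra3*, *Gabra4* and *Gabrd* and below all others for *Gabra2*, while for *Gabra5* they stood at 7.01 and 116 CPM.

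The beta subunits, which are required for assembly and transport of the receptor to the surface, lay on opposite sides of control in the ONX-0914 libraries. *Gabrb2* was at 219, 208 and 217 CPM in control and at 219 and 140 CPM in DMSO. It was at 269 CPM in ONX-0914 replicate 1, the highest of all libraries, and at 118 CPM in replicate 2, the lowest. The Log2FC against control was -0.15 (SE 0.335, edgeR FDR 0.825), and changed from -0.87 without ONX-0914 replicate 1 to 0.33 without replicate 2. *Gabrb1* was at 159, 142 and 169 CPM in control, at 157 and 109 CPM in DMSO, and at 122 and 193 CPM in ONX-0914 replicates 1 and 2. Its Log2FC against control was 0.01 (SE 0.244, edgeR FDR 0.983), with 0.29 without ONX-0914 replicate 1 and -0.36 without replicate 2. Both genes were also lower in DMSO replicate 3 than in any control library, so that the DMSO libraries differed by 0.64 on the log2 scale for *Gabrb2* and by 0.53 for *Gabrb1*.

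**Figure D3:**
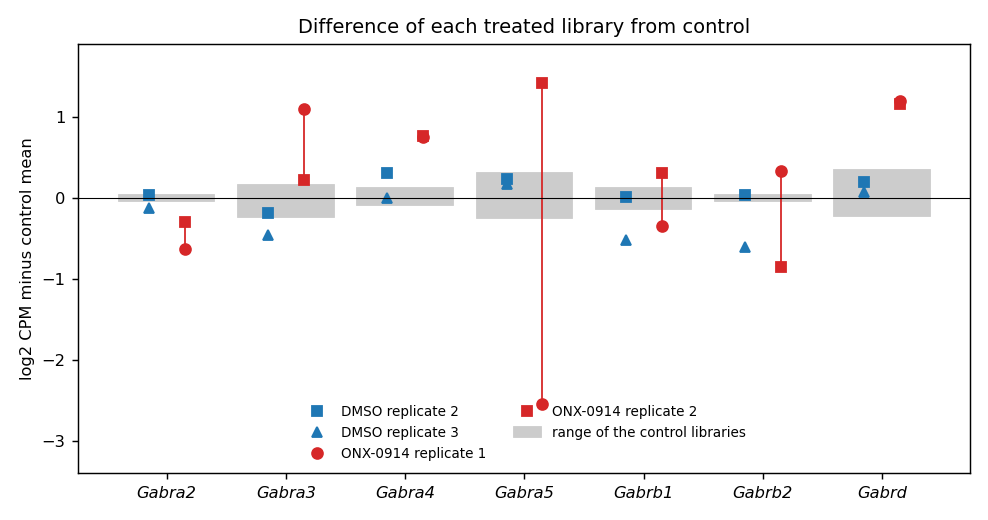
Difference of each treated library from the control mean, in log2 CPM, for the 7 subunit genes. Grey boxes span the 3 control libraries, and a red line joins the ONX-0914 libraries (circle, replicate 1, and square, replicate 2). The line is short for *Gabra4* and *Gabrd* and longest for *Gabra5*, from -2.55 to 1.42.

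In the comparison of ONX-0914 with control, none of the 7 members passed an edgeR FDR of 0.05, the threshold passed by 0.114% of all genes tested. At an FDR of 0.1, *Gabrd* passed, beside 1.48% of all genes. An unadjusted p under 0.05 was found for *Gabrd*, *Gabra4*, *Gabra2* and *Gabra3*, which is 4 of 7 members beside 18.6% of all genes. The median Log2FC over the members was 0.53, which is the value of *Gabra5* (SE 0.784), and 0.05 over all genes tested. Of the 7 members, 5 were positive, among them *Gabrb1* at 0.01, beside 53.8% of all genes. By DESeq2, 2 members passed an FDR of 0.05, *Gabrd* (0.0169) and *Gabra4* (0.0487), beside 3.01% of the genes given an FDR. The same 2 passed by the likelihood-ratio test of edgeR, beside 4.27% of all genes, and with no filter on low counts *Gabrd* passed alone, beside 2.15%. Over all 17 alternative settings, the FDR of *Gabrd* ranged from 3.96e-05 to 0.385 and that of *Gabra4* from 9.96e-05 to 0.39, with positive Log2FC in each.

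When ONX-0914 replicate 1 was left out, 5 members passed (*Gabra4*, *Gabra5* and *Gabrd* higher, *Gabra2* and *Gabrb2* lower), but so did 51.2% of all genes. When ONX-0914 replicate 2 was left out, 5 passed as well (*Gabra3*, *Gabra4* and *Gabrd* higher, *Gabra2* and *Gabra5* lower), beside 19% of all genes. In these fits the single ONX-0914 library is assumed to vary like the control and DMSO libraries. *Gabra5* was called in opposite directions in them, and *Gabra2*, *Gabra4* and *Gabrd* in the same direction.

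Across all genes tested, both ONX-0914 libraries lay above all 5 others in 11.3% and below them in 11.4%. Among the members, this was 3 of 7 (*Gabra3*, *Gabra4* and *Gabrd*) and 1 of 7 (*Gabra2*). The ONX-0914 libraries lay on opposite sides of all control libraries for *Gabra5*, *Gabrb1* and *Gabrb2*, 3 of 7 members beside 23.4% of all genes. They were at least 1 log2 unit apart for *Gabra5* and *Gabrb2*, 2 of 7 members beside 25.2% of all genes. By contrast, no member spread by 1 log2 unit or more in the control libraries, where the range was 0.07 to 0.58, or in the DMSO libraries, where it was 0.07 to 0.64.

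DMSO itself was compared with control. No member passed an FDR of 0.05 (0.0152% of all genes did), and none had an unadjusted p under 0.05 (2.65% of all genes). The Log2FC was lowest for *Gabra3* at -0.32 (SE 0.279) and highest for *Gabra5* at 0.19 (SE 0.810). In the comparison of ONX-0914 with DMSO, again no member passed (0.0456% of all genes did). *Gabrd*, *Gabra3* and *Gabra4* had an unadjusted p under 0.05, 3 of 7 members beside 14.7% of all genes. By the likelihood-ratio test *Gabrd* passed, beside 2.5% of all genes. Without ONX-0914 replicate 1, 6 members passed, beside 46% of all genes, and without ONX-0914 replicate 2, 6 passed beside 17%. The comparisons with control and with DMSO share the ONX-0914 libraries and are not independent of each other.

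To describe the makeup of the alpha subunits within a library, where scaling between libraries cancels, each alpha gene was expressed as a share of the summed CPM/kb of *Gabra2*, *Gabra3*, *Gabra4* and *Gabra5*. In control, the shares were 27.9 ± 1.9% for *Gabra2*, 28.5 ± 3.6% for *Gabra3*, 20.4 ± 2.2% for *Gabra4* and 23.2 ± 3.7% for *Gabra5* (mean ± SD, n = 3). The DMSO libraries had shares of 27.0% and 27.8%, 23.5% and 22.3%, 23.8% and 22.0%, and 25.7% and 28.0% in the same order. Of the 4 genes, *Gabra3* alone had DMSO shares that did not overlap those of control, just below them. *Gabra2* stood at 15.4% and 14.9% in ONX-0914 replicates 1 and 2, below the lowest of the 5 others, 25.8%. *Gabra3* made up 52.1% in ONX-0914 replicate 1 and 21.7% in replicate 2, and *Gabra5* 3.2% and 40.7%. For *Gabra4* the shares were 29.3% and 22.8%, of which the second lay within the control range. With the length of the longest transcript, the *Gabra4* share in ONX-0914 replicate 2 was 27.8%, above the control range of 22.9% to 27.3%. Of the summed beta level, *Gabrb2* made up 73.6% to 76.1% in the 5 libraries without ONX-0914, 82.7% in ONX-0914 replicate 1 and 57.2% in replicate 2. No test was made on shares.

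**Figure D4:**
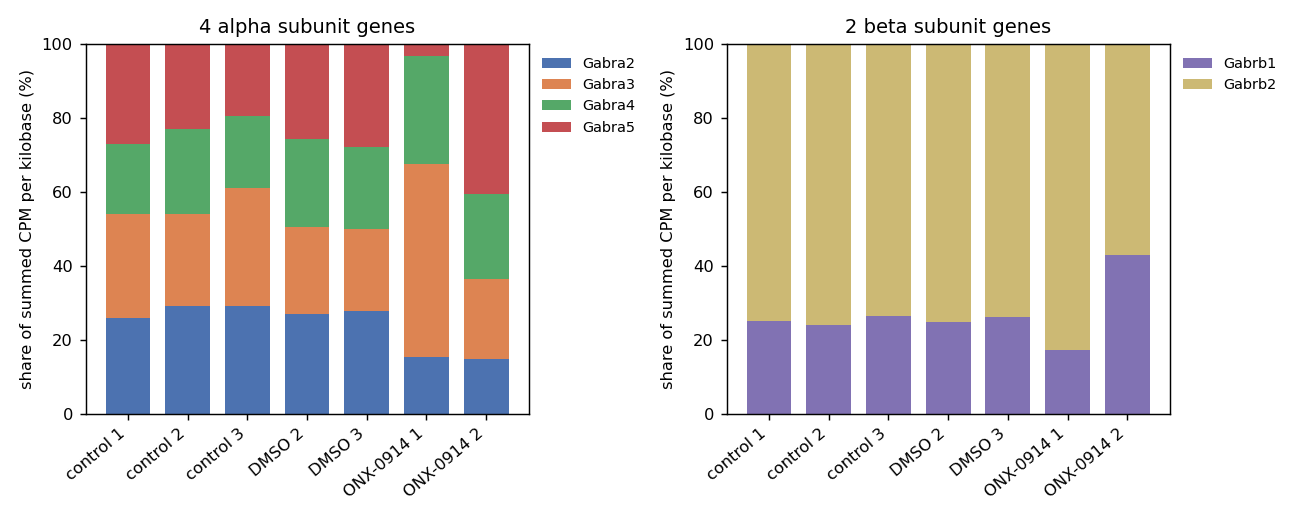
Share of each gene in the summed CPM per kilobase of the 4 alpha genes (left) and the 2 beta genes (right), in percent, for each library. The share of *Gabra2* was lower in both ONX-0914 libraries (15.4% and 14.9%) than in the 5 others, and *Gabra5* made up 3.2% in ONX-0914 replicate 1 and 40.7% in replicate 2.

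For each member, the 3 other genes with the most similar profile over the 7 libraries were found by the root-mean-square difference in centred log2 CPM, among 13145 genes. The closest profiles belonged to *Cacna2d3* for *Gabra2* (0.037), *Fry* for *Gabrb1* (0.050), *Fhl1* for *Gabra4* (0.067), *Ctif* for *Gabrb2* (0.114), *Plekha6* for *Gabra3* (0.115), *Cux1* for *Gabrd* (0.131) and *Rprml* for *Gabra5* (0.269). *Foxn2* and *Mef2a* followed for *Gabra2*, *Pdlim7* and *Patz1* for *Gabrb1*, *Rgs5* and *Adgrg1* for *Gabra4*, and *Wdr25* and *Chrnb2* for *Gabrb2*. For *Gabra3* these were *Timp2* and *Pgap1*, for *Gabrd* *Shisa9* and *Plagl1*, and for *Gabra5* *Nup35* and *Kl*. Profiles near *Gabra5* were less alike than those near the other members, and *Nup35* had no count in ONX-0914 replicate 1. Among the members themselves, *Gabra4* and *Gabrd* (0.292) and *Gabra2* and *Gabrb1* (0.294) were closest, and *Gabra3* and *Gabra5* farthest apart (1.48). These distances are descriptive, and the ONX-0914 libraries, with their different tissue markers, contribute to each of them.

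The other genes of GABA signaling were taken from lists of further receptor subunits, GABA synthesis and transport, proteins of the inhibitory synapse, GABA-B receptors and chloride transporters. Of 53 listed genes, 52 had an identifier and 44 were tested. None passed an edgeR FDR of 0.05 in ONX-0914 against control. An unadjusted p under 0.05 was found for 7 that were higher and 5 that were lower, 12 of 44 beside 18.6% of all genes, and the median Log2FC was 0.08, beside 0.05 over all genes. Among 12 further GABA-A receptor subunits, 5 were tested, 4 with a Log2FC above 0 and 1 below, beside 53.8% of all genes above 0. *Gabrg1*, which encodes a gamma subunit, was at 12.4, 10.9 and 10.2 CPM in control, 10.96 and 11.7 CPM in DMSO and 23.3 and 17.7 CPM in the ONX-0914 libraries (Log2FC 0.87 against control, SE 0.234, FDR 0.139). Hence, both ONX-0914 libraries were higher than the 5 others.

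Of 8 tested genes for GABA synthesis, breakdown and transport, 6 had a positive Log2FC against control, with a median of 0.54, and all 8 were positive against DMSO, beside 53.8% of all genes in each comparison. None passed an edgeR FDR of 0.05 in either comparison, and an unadjusted p under 0.05 was found for 3 of the 8 against control (18.6% of all genes) and 5 of the 8 against DMSO (14.7% of all genes), all of them higher. In DMSO against control, however, all 8 had a negative Log2FC, with a median of -0.26, while 49.5% of all genes were positive. The comparison of ONX-0914 with DMSO shares these DMSO libraries. By library, *Gad2* was at 316 and 105 CPM in ONX-0914 replicates 1 and 2, against 122 to 141 in control. *Abat* (525 and 218 CPM), *Slc32a1* (163 and 46.4 CPM) and *Aldh5a1* (115 and 74.5 CPM) behaved likewise. All of these were above every control library in replicate 1 and below them in replicate 2. *Gad1* (402 and 253 CPM) and *Slc6a11* were above every control library in both, and *Slc6a13* was within the control range in both. *Slc6a11*, the astrocyte GABA transporter that is also abundant in thalamus, was named by its FDR of 0.232 against DMSO. It stood at 405 and 129 CPM in ONX-0914 replicates 1 and 2, and at 91.6 to 105 CPM elsewhere. Its Log2FC against control, 1.41, was 0.36 without ONX-0914 replicate 1.

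In the list for the inhibitory synapse, 23 genes were tested and 15 had a negative Log2FC against control, with a median of -0.19. Over all genes, 53.8% were positive in this comparison. In DMSO against control, 16 of the 23 were negative, with a median of -0.09, while 49.5% of all genes were positive. *Mdga1*, a membrane protein known to bind the synaptic organizer neuroligin 2, had the lowest FDR of all listed GABA genes. Its level was 98.7, 91.0 and 99.6 CPM in control, 92.5 and 90.3 CPM in DMSO and 42.8 and 33.1 CPM in the ONX-0914 libraries. The Log2FC was -1.35 against control (SE 0.181, edgeR FDR 0.0509) and -1.27 against DMSO (SE 0.193, FDR 0.0820). Neither passed the threshold of 0.05. The Log2FC against control was -1.55 when replicate 1 was left out and -1.17 when replicate 2 was. Of the 5 genes for GABA-B receptors and their partners, 3 were positive and 2 negative against control, and of the 3 chloride transporters and channels 2 were positive and 1 negative, with no call among them.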

How the data were processed

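Total RNA of mouse hippocampus was sequenced in directional, single-end libraries. Per the labels, the reads were trimmed with Trimmomatic 0.39, aligned with STAR 2.7.3a and counted with featureCounts 2.00, and the genome build named in the submitters' processing notes is GRCm39. The annotation and the strand setting are not given in the sources used here. The authors deposited whole-number counts per gene without normalization, 1 file per library, and 89.6% to 91.4% of the reads in the files were assigned to genes. The remaining reads stayed out of library sizes and tests. Symbols, exon lengths and overlaps came from GENCODE M21 (52083 of 55416 identifiers matched), and upstream sequences from RefSeq. Since these use another build than the files, no coordinates of counted features are given.

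The tests were run with edgeR 4.0.16 under R 4.3.3 (filterByExpr over the 3 groups, TMM factors 0.965 to 1.10, glmQLFit and glmQLFTest, 1 mean per group over all 7 libraries, Benjamini–Hochberg adjustment over 13152 genes, FDR under 0.05). The Log2FC is the fitted one (prior count 0.125). CPM used TMM-scaled library sizes, log2 CPM a prior count of 2, and counting intervals are exact Poisson (95%). Alternatives included DESeq2 1.42.0, limma voom (limma 3.58.1), other scalings and filters, the replicate block, and each library left out. The steps were tested on simulated data with 200 changed genes. The members and lists were chosen with earlier results of these data known. Named by rule were all members, the other GABA genes with an FDR under 0.1 or, where fewer than 3 met this, the 3 lowest, and the 3 genes nearest to each member in profile. Further genes of GABA synthesis and transport were named to show their values in the single ONX-0914 libraries. The result of 1 of the other GABA genes is not reported here.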

Additional observations from a re-analysis of the deposited data

How the results depend on the processing

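Counting error limits *Gabra5* in ONX-0914 replicate 1 (28 counts) and *Gabrd* in control (44 to 79 counts). Total-count scaling raised the median Log2FC of all genes in ONX-0914 against control from 0.05 to 0.19 and left the sign of every member as it was. The number of members called against control was 0 by edgeR, 2 by DESeq2, 2 by the likelihood-ratio test and 1 with no filter, with a range of 0 to 5 when each library was left out. Against DMSO it was 1 by the likelihood-ratio test and 0 to 6 with each library left out. DMSO against control gave 0 in all settings. Leaving out either ONX-0914 library removes the spread between them from the fit, so that 7023 genes (without replicate 1) or 2594 (without replicate 2) were called against control in place of 15. Of the other GABA genes, 2 were called higher by DESeq2, 2 by the likelihood-ratio test and 1 with no filter, 0 to 12 with each library left out. *Mdga1* was the 1 gene called lower by DESeq2, RLE size factors, the legacy quasi-likelihood fit, the likelihood-ratio test, limma voom and no filter, with 0 to 17 called lower when each library was left out. Longest-transcript lengths left 3 members in place and gave control shares of 24.8% for *Gabra3* and 24.5% for *Gabra4*.

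In ONX-0914 against control, *Gabra5* was at -0.27 by limma voom and -2.62 to 1.41 with each library left out, *Gabrb1* at -0.00016 by DESeq2, -0.048 by limma voom, -0.00041 by RLE and -0.36 to 0.29, and *Gabrb2* at -0.87 to 0.33. In DMSO against control, the ranges with each library left out were -0.12 to 0.032 for *Gabra2*, -0.0027 to 0.30 for *Gabra4*, -0.53 to 0.0041 for *Gabrb1*, -0.61 to 0.029 for *Gabrb2* and -0.0033 to 0.32 for *Gabrd*. In ONX-0914 against DMSO, *Gabra5* was at -0.49 by limma voom and -2.82 to 1.21 with each library left out, *Gabrb1* at -0.13 to 0.53 and *Gabrb2* at -0.62 to 0.57. The cause was not tested where a single setting changed a sign. Deviations of same-numbered libraries from their group means had correlations of -0.096 to 0.064. In a group of 2 libraries the deviations mirror each other, so these correlations cannot settle whether the replicate numbers pair the samples. With the replicate block, no member was called in any comparison, all-gene calls against control were 1, and 4 of 21 signs changed: *Gabra5* (-0.15) and *Gabrb1* (-0.052) against control, *Gabra5* in DMSO against control (-0.25) and *Gabrb2* against DMSO (-0.28).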

Other observations

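Some GABA-A receptor subunits that did not pass the filter on low counts had counts mainly in ONX-0914 replicate 1, the library with high thalamic and striatal markers, and were chosen for mention after their values were seen. *Gabrq*, which encodes the theta subunit, had 1, 0 and 3 counts in control replicates 1, 2 and 3, 0 in both DMSO libraries, 30 in ONX-0914 replicate 1 and 7 in the more deeply sequenced replicate 2. *Gabrr1*, which encodes a rho subunit best known from retina, had 8 counts in ONX-0914 replicate 1, 1 in DMSO replicate 2 and 0 elsewhere.

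Relative to the summed dentate granule cell markers, *Gabrd* was at 0.0593, 0.05 and 0.0652 in control replicates 1, 2 and 3, at 0.0641 and 0.0775 in DMSO replicates 2 and 3, at 0.586 in ONX-0914 replicate 1 and at 0.154 in ONX-0914 replicate 2. The near-equal CPM of *Gabrd* in the ONX-0914 libraries thus stood beside unequal levels of markers of a cell type in which the subunit is abundant. A high ratio in ONX-0914 replicate 1 was not particular to *Gabrd*. There, the ratio was above every control library for all members except *Gabra5*, with *Gabrb2* at 4.01 against 0.653 to 0.830 in control. In ONX-0914 replicate 2 the ratio was above every control library for *Gabra3*, *Gabra4*, *Gabra5* and *Gabrb1*, as it was for *Gabrd*. For *Gabra2* and *Gabrb2* it was not. The part of the dentate markers in the difference of *Gabrd* was not tested.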
